A study of Homo sapiens with 8 samples.

Results

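The semaphorin, plexin, Slit and netrin guidance genes were taken as 47 named ligands and receptors of the SEMA, PLXN, NRP, ROBO, SLIT, UNC5, NTN, DCC and NEO1 families, out of 34792 genes with summed reads. They fall into 20 semaphorin ligands, 11 semaphorin receptors (plexins and neuropilins), 6 Slit and netrin ligands and 10 Slit and netrin receptors. All 47 had at least 1 matched transcript, and 38 passed the filter on low counts and were tested. The rule used family membership and no measured value, but the members were chosen with earlier results of these data known.

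The study silenced FEZF1, a zinc finger transcription factor of the developing forebrain, in A673, an Ewing sarcoma cell line that carries the EWSR1-FLI1 fusion. The cells expressed a tetracycline repressor, all descending from 1 clone chosen for its repressor level (A673/TR), and carried a doxycycline-inducible short hairpin RNA against FEZF1 (A673/TR/shFEZF1). A polyclonal population (bulk) and 3 clones (c3, c5 and c6) were each grown untreated (control) and with 1 µg/mL doxycycline for 72 h, which gave 4 control and 4 doxycycline cultures and 1 RNA-seq library from each. The clones had been chosen for the strongest loss of FEZF1 protein. Both groups carried the repressor and the hairpin, and no culture with doxycycline but without the hairpin was analysed here, so that the drug and the hairpin cannot be told apart. Between 26719886 and 42422421 reads were assigned per library. In the main fit, which pairs cultures by origin (bulk, c3, c5 or c6), the p-values rest on the spread left after origin and treatment. In fits without this pairing, they also take in the differences between origins. Both concern these 8 cultures alone. In RNA from whole cultures fewer cells of a kind and less RNA per cell cannot be told apart.

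Semaphorins are secreted or membrane-bound proteins that steer growing axons and migrating cells, and they signal through plexins, with neuropilins as partners for most of the secreted class 3 members. Slit proteins repel axons through Robo receptors. Netrins attract through DCC and neogenin and repel through UNC5 receptors, and all of these families also work outside the nervous system, in vessels and in tumours.

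Start sites are shown for the genes that the doxycycline comparison called (adjusted p under 0.05, described below) and that the RefSeq promoter table (GRCh38.p14) held, which were 4 of 7: SEMA3D, PLXNB2, NEO1 and ROBO1, the last with 2 start sites. Each sequence runs 5′ to 3′ from 250 bases before to 50 bases after a start. Capitals mark GGAA on either strand (GGAA or TTCC), the core of the sites that ETS factors such as FLI1 bind.
SEMA3D, chr7:85187007-85187306, minus strand: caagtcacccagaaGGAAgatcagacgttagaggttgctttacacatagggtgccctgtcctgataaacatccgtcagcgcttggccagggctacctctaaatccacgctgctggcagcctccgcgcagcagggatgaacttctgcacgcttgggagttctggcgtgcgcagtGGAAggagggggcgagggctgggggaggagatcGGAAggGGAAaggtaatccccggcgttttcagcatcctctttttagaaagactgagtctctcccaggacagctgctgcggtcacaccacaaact
PLXNB2, chr22:50301620-50301919, minus strand: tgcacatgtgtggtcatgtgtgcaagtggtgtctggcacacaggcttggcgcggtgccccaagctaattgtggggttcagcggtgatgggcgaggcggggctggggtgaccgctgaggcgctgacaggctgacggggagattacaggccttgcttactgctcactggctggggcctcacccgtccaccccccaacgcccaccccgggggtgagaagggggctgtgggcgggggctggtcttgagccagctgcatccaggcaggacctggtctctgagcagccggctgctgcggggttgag
NEO1, chr15:73051652-73051951, plus strand: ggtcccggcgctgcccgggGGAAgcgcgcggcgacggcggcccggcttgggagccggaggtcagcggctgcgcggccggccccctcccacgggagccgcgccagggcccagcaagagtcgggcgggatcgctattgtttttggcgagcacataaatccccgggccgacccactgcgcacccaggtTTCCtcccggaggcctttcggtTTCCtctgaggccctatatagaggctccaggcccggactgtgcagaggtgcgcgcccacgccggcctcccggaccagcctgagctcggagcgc
ROBO1, chr3:79767949-79768248, minus strand: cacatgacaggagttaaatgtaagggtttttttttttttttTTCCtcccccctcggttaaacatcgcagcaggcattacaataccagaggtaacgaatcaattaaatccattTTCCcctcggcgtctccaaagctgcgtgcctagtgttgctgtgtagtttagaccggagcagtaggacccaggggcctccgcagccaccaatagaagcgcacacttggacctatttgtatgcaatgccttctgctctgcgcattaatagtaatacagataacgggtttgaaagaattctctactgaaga
ROBO1, chr3:79019410-79019709, minus strand: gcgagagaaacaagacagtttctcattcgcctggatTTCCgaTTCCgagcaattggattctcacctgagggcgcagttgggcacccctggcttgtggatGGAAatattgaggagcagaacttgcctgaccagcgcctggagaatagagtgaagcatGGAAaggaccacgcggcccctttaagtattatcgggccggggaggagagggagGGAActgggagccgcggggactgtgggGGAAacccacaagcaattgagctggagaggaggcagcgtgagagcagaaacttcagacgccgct
GGAA occurred on either strand in 95.5% of all 35116 promoters of that table and in 61 of the 65 promoters of the guidance genes (93.8%), with a median of 3 matches in both. PLXNB2 had 0 matches, NEO1 had 3, SEMA3D had 4, and ROBO1 had 2 at the upstream start and 6 at the downstream start. The windows of SEMA3D and PLXNB2 show starts inside the annotated genes, which begin at 85250243 and 50307646 on the minus strand. Their counts do not cover the outermost start of either gene. A tandem pair, GGAAGGAA, which also counts as GGAA, was in none of these 5 windows. It was in 3 of the 65 guidance promoters (PLXNB1, SLIT3 and UNC5A) against 3.67% of all. TATAAA was in 1 of 65 (1.54%) against 11.5% of all promoters. CCAAT, counted on either strand (CCAAT or ATTGG), was in 16 of 65 (24.6%) against 34.6%. Among the 5 windows shown, it was found once in each ROBO1 window and in no other. It reads CCAAT in the upstream ROBO1 window and ATTGG in the downstream one. The CG dinucleotide had a median of 21 per guidance promoter against 14 per promoter of the table, and NEO1 stood out in the set shown with 35. All of these matches are letters in a window and describe no binding.

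The label of the cells was checked against marker genes. All 9 Ewing sarcoma markers were present in every library, with CD99, the surface protein used in diagnosis, at 1387 to 3671 TPM (a level scaled to transcript length and library size) and CCND1 at 838 to 1044 TPM. Of these 9 markers 4 were called between the groups. NR0B1 (log2 fold change 0.67, adjusted p = 0.00745) and NKX2-2 (0.30, adjusted p = 0.0414), both transcription regulators under EWSR1-FLI1, rose with doxycycline, and LIPI (-0.30, adjusted p = 0.0203) and FEZF1, the target of the hairpin, fell (edgeR). The part of these marker changes in the results below was not tested. Of the 4 blood and 3 endothelial markers none reached 1 TPM in any library, and CD3E and CDH5 were at 0 in every library. Of the 3 epithelial markers, EPCAM reached 3.39 TPM and the others stayed under 1. EPCAM was at 0.127, 0.0368, 1.99 and 0.136 TPM in the controls of bulk, c3, c5 and c6 and at 0.685, 0.566, 3.39 and 1.01 TPM with doxycycline, higher in 4 of 4 pairs and just short of the threshold (log2 fold change 1.90, adjusted p = 0.0501, edgeR), and its part in the results was not tested. The 4 fibroblast markers summed to 99.0 to 754 TPM, nearly all of it COL1A1 (47.5 to 388 TPM) and COL3A1 (46.3 to 386 TPM), with DCN at no more than 6.32 and LUM at no more than 1.55 TPM. This sum was highest in c3 (743 TPM in control, 754 with doxycycline) and lowest in c5 (99.0 and 142 TPM). None of these 4 fibroblast markers was called between the groups, and their part in the results was not tested.

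FEZF1, the target of the hairpin, stood at 96.4, 70.5, 107 and 74.4 CPM (counts scaled to the TMM-corrected size of the library) in the control cultures of bulk, c3, c5 and c6, and at 60.6, 43.0, 60.8 and 36.4 CPM with doxycycline. It was lower with doxycycline in every pair, and the groups did not overlap. The log2 fold change was -0.81 (standard error 0.0726, adjusted p = 0.00594 by edgeR's quasi-likelihood test with the origin as a block). Without the block the adjusted p was 0.290 (range over the alternatives 1.08e-18 to 0.290).

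The first question was whether the guidance genes moved with FEZF1 silencing. Of the 38 tested, 7 were called, 1 higher and 6 lower with doxycycline. SEMA6A rose, and SEMA3A, SEMA3D, SEMA6B, PLXNB2, ROBO1 and NEO1 fell. That is 18.4% of the members tested, where 7.63% of all 15993 genes tested were called. In the higher direction it was 2.63% against 3.73%, and in the lower direction 15.8% against 3.91%. The median log2 fold change of the 38 was -0.20, against 0.0042 for all genes, and 27 lay below 0 and 11 above.

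Whether these calls were made depended on the pairing by origin. Without the block edgeR called 0 of the 38, with 7 at an unadjusted p under 0.05, and 0.00625% of all genes, 1 gene, with 1155 at an unadjusted p under 0.05. DESeq2 with the block called 10 (2 higher and 8 lower) against 14.9% of all genes that kept an adjusted p, and without the block it called SEMA6A alone against 1.64%. With the block SEMA3B, SEMA3G, SEMA4A, PLXNB3 and UNC5C kept no adjusted p in DESeq2, so the 10 are out of fewer than 38. On simulated counts, with fewer changed genes than were called here, the blocked edgeR fit gave more false calls than its threshold allows. Where these false calls fell was not examined, so the caution holds for all 7 calls. Of the 7, ROBO1 and SEMA3A lay nearest the threshold (adjusted p = 0.0433 and 0.0280, edgeR). In some alternatives calls further from the threshold were lost, among them those of SEMA6B and NEO1 with curated transcripts alone. There SEMA6B kept all its matched reads, on the curated NM_032108.4, and missed narrowly (adjusted p = 0.05135, edgeR). NEO1 lost nearly all of its reads there, since the curated NM_002499.4 held only 0% to 5.13% of them.

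The pairs themselves showed 14 members lower in 4 of 4 pairs, where 15.9% of all genes were, and 5 members higher in 4 of 4, where 17.3% were. The remaining 19 went both ways. In SEMA4A, SEMA6A, UNC5C and NEO1 the control and doxycycline cultures did not overlap, 4 of 38 where 4.94% of all genes did not overlap.

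Among the semaphorin ligands, 17 of 20 were tested, 1 rose, 3 fell and 13 were not called, with a median log2 fold change of -0.16. The rise was in SEMA6A, a transmembrane class 6 semaphorin that signals to plexin A2 and plexin A4 and is known for guiding cerebellar granule cells and thalamic axons. SEMA6A stood at 36.5, 25.1, 36.3 and 27.0 CPM in the controls of bulk, c3, c5 and c6, and at 63.6, 67.6, 108 and 53.3 CPM with doxycycline. Every doxycycline culture lay above every control culture, and c5 with doxycycline was the highest. SEMA6A rose from 31.2 ± 6.02 CPM in the controls to 73.0 ± 23.9 CPM with doxycycline (SD, n = 4 each). The fitted log2 fold change was 1.20 (standard error 0.129, adjusted p = 0.00635, edgeR).

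The single pairs gave log2 ratios of SEMA6A of 0.80 in bulk, 1.43 in c3, 1.57 in c5 and 0.98 in c6. By p-value it ranked 46 of all 15993 genes, and it was 1 of 143 called genes with a change of 1 or more on the log2 scale (11.7% of the genes called). SEMA6A lies on the minus strand of chromosome 5, at 116443555 to 116574823 (GRCh38.p14). The transcript NM_020796.5 held 62.0% to 76.2% of its reads and the predicted XM_005272042.4 held 18.0% to 31.7%, with overlapping ranges in both groups. Its antisense gene SEMA6A-AS1 was at 0.281 to 0.996 CPM. Without the block the adjusted p of SEMA6A was 0.150 (range over the alternatives 5.37e-16 to 0.150), and no other alternative ended this call.

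The known receptors of SEMA6A had few reads in these cells. PLXNA4 had at most 8 reads in any library and PLXNA2 at most 70, and neither passed the filter. PLXNA2 was at 2.08 and 2.03 CPM in the control and doxycycline cultures of c3 and at no more than 0.481 CPM in the other 6 libraries. SEMA6A itself was at 8.24 ± 1.71 TPM in control and 19.4 ± 6.18 TPM with doxycycline (SD, n = 4 each).

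SEMA6B, the class 6 relative of SEMA6A that also binds plexin A4, went the other way. It stood at 23.0, 25.4, 12.2 and 27.6 CPM in the controls of bulk, c3, c5 and c6, and at 18.6, 8.31, 4.65 and 11.7 CPM with doxycycline. The c5 control was the lowest of its group and lay below the bulk doxycycline culture, so the groups overlapped. SEMA6B fell from 22.0 ± 6.83 CPM in the controls to 10.8 ± 5.92 CPM with doxycycline (SD, n = 4 each). The fitted log2 fold change was -1.12 (standard error 0.202, adjusted p = 0.0218, edgeR). Without the block the adjusted p was 0.603 (range over the alternatives 4.31e-06 to 0.603). With curated transcripts alone SEMA6B just missed the threshold, at a log2 fold change of -1.13 (adjusted p = 0.05135, edgeR). Its reads came from 1 matched transcript, which held 43.3% of the reads that the authors' deposited mean implies for the gene.

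Of the other class 6 members, SEMA6C had a log2 fold change of 0.30 (adjusted p = 0.122) and SEMA6D of -1.05 (adjusted p = 0.309, edgeR), and neither was called. SEMA6D was at 7.04 CPM in the c5 control and at 0.365 CPM in the c5 doxycycline culture, while the other 6 libraries held 4.001 to 11.8 CPM. Only 41.0% of its reads were matched.

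Secreted class 3 semaphorins were the other place where calls were found. SEMA3D, a secreted ligand known from heart and vein development, stood at 47.7, 64.8, 39.7 and 68.1 CPM in the controls of bulk, c3, c5 and c6, and at 37.5, 41.2, 19.4 and 36.6 CPM with doxycycline. It was lower in every pair, while the c5 control overlapped the c3 doxycycline culture. SEMA3D fell from 55.1 ± 13.6 CPM in the controls to 33.7 ± 9.75 CPM with doxycycline (SD, n = 4 each). The fitted log2 fold change was -0.73 (standard error 0.110, adjusted p = 0.0138, edgeR), and without the block the adjusted p was 0.532 (range over the alternatives 1.73e-07 to 0.532). The matched transcripts held 54.7% of the reads implied for SEMA3D.

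SEMA3A, the collapsing factor for sensory growth cones that binds neuropilin 1, stood at 19.8, 33.9, 18.9 and 17.4 CPM in the controls of bulk, c3, c5 and c6, and at 12.2, 21.5, 16.7 and 9.51 CPM with doxycycline. The groups overlapped, since c3 was highest in both, and the c5 pair moved least, by a log2 ratio of -0.18. SEMA3A fell from 22.5 ± 7.67 CPM in the controls to 15.0 ± 5.29 CPM with doxycycline (SD, n = 4 each). The fitted log2 fold change was -0.60 (standard error 0.119, adjusted p = 0.0280, edgeR), and without the block the adjusted p was 0.753 (range over the alternatives 6.05e-04 to 0.753). Here 44.1% of the implied reads were matched, 88.5% to 100% of them on NM_006080.3.

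SEMA3B, a secreted semaphorin known as a candidate tumour suppressor in lung, was low, at 1.22, 1.45, 0.835 and 1.33 CPM in the controls of bulk, c3, c5 and c6, and at 1.01, 0.785, 0.697 and 0.715 CPM with doxycycline. It was lower in 4 of 4 pairs, with overlap of bulk with doxycycline and the c5 control, and was not called (log2 fold change -0.57, standard error 0.241, adjusted p = 0.194, edgeR). SEMA3F, which binds neuropilin 2, was the most abundant class 3 member at 26.1 ± 8.18 TPM in control and 22.6 ± 6.26 TPM with doxycycline (SD, n = 4 each). It stood at 43.0, 63.3, 31.02 and 46.4 CPM in the controls of bulk, c3, c5 and c6, and at 43.0, 49.0, 26.3 and 43.2 CPM with doxycycline. The groups overlapped widely, and SEMA3F was not called (log2 fold change -0.18, adjusted p = 0.204, edgeR). SEMA3C had a log2 fold change of 0.25, SEMA3G of -0.38, and neither was called, while SEMA3E, with at most 7 reads in any library, was not tested.

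Class 4 semaphorins, which mostly bind B-type plexins, held no call. SEMA4C, the ligand of plexin B2, had the highest mean of the semaphorins in each group, at 28.2 ± 3.08 TPM in control and 29.6 ± 6.42 TPM with doxycycline (SD, n = 4 each). In single libraries SEMA3F was higher in the c3 and c6 controls and in c6 with doxycycline. The libraries held 56.3, 59.6, 55.6 and 51.5 CPM of SEMA4C in the controls of bulk, c3, c5 and c6 and 59.8, 67.7, 60.04 and 49.0 CPM with doxycycline, so the groups overlapped (log2 fold change 0.078, adjusted p = 0.508, edgeR). SEMA4A, known from immune cells and the retina, was low and separated the groups, at 0.481, 0.441, 0.290 and 0.523 CPM in the controls of bulk, c3, c5 and c6 and at 1.29, 0.785, 0.697 and 0.757 CPM with doxycycline. Its log2 fold change was 1.02 (standard error 0.278) on at most 42 reads per library, and it was not called (adjusted p = 0.0668, edgeR, range over the alternatives 0.0674 to 0.703).

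SEMA4B, SEMA4D and SEMA4F had log2 fold changes of -0.31, 0.045 and -0.14 and were not called. SEMA4G was not tested, had reads in 3 of 8 libraries, and had 4.89% of its implied reads matched. SEMA5B and SEMA7A, a transmembrane and a membrane-anchored semaphorin, had log2 fold changes of -0.16 and -0.079 and were not called, and SEMA5A had at most 12 reads per library. Summed over the 20 ligands, the semaphorin level was 125 ± 18.2 TPM in control and 122 ± 20.3 TPM with doxycycline (SD, n = 4 each).

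**Figure D1:**
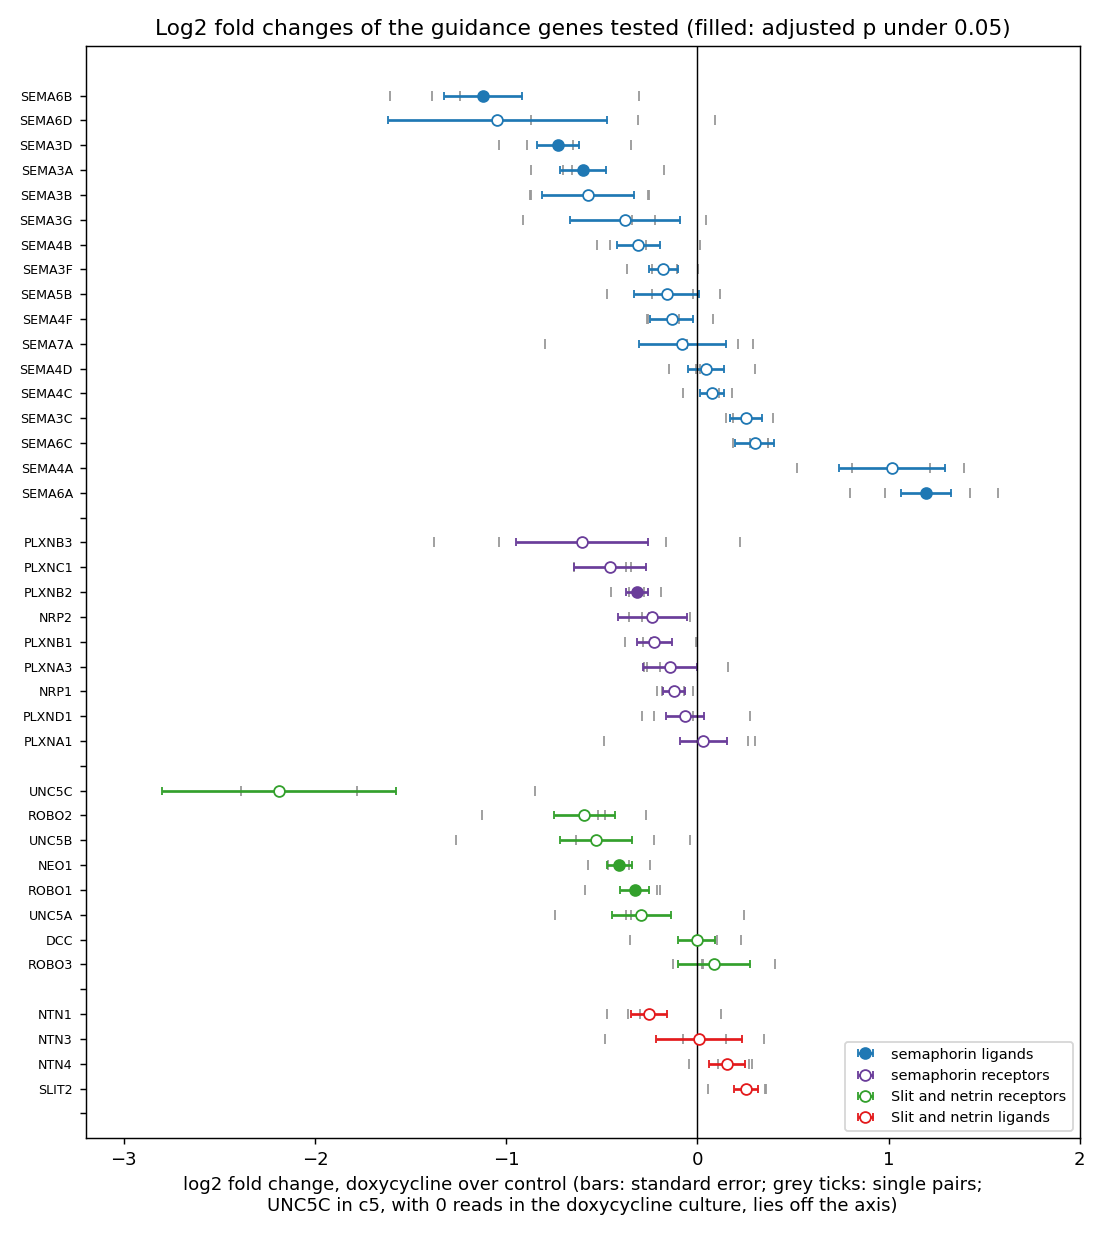
Log2 fold change of doxycycline over control (x axis) for the 38 guidance genes tested, by class, with bars for the standard error, filled points for an adjusted p under 0.05 and grey ticks for the 4 single pairs. SEMA6A is the only filled point above 0, and UNC5C, the lowest point at -2.19, is open. The c5 pairs of UNC5C, which had 0 reads with doxycycline, and of SEMA6D, at a log2 ratio of -4.21, lie off the axis.

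Of the 11 semaphorin receptors 9 were tested, 1 fell and 8 were not called, with a median log2 fold change of -0.22. Plexin B2, a receptor for class 4 semaphorins that is needed for the closure of the neural tube, had the highest level of all guidance genes, at 77.6 ± 9.69 TPM in control and 63.2 ± 13.4 TPM with doxycycline (SD, n = 4 each). PLXNB2 stood at 325, 313, 286 and 271 CPM in the controls of bulk, c3, c5 and c6, and at 285, 258, 224 and 198 CPM with doxycycline. The bulk doxycycline culture lay among the controls of the clones, and every pair moved down, from -0.19 in bulk to -0.45 in c6 on the log2 scale. PLXNB2 fell by 0.32 on the log2 scale (standard error 0.0575, adjusted p = 0.0221, edgeR), and without the block the adjusted p was 0.634 (range over the alternatives 6.62e-06 to 0.634).

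Neuropilin 1, the binding partner of SEMA3A and a co-receptor for VEGF, was the second most abundant receptor, at 40.8 ± 7.83 TPM in control and 39.9 ± 10.2 TPM with doxycycline (SD, n = 4 each). NRP1 held 87.2, 62.8, 91.2 and 65.4 CPM in the controls of bulk, c3, c5 and c6 and 83.0, 54.3, 89.7 and 57.6 CPM with doxycycline. The libraries followed the origin more than the treatment, with bulk and c5 high in both groups (log2 fold change -0.12, adjusted p = 0.254 for treatment and 0.00269 for origin, edgeR). Plexin A1, which signals with neuropilins, came next at 16.7 ± 2.52 and 17.6 ± 5.18 TPM (SD, n = 4 each). PLXNA1 held 88.3, 111, 83.5 and 84.4 CPM in the controls of bulk, c3, c5 and c6 and 109, 112, 100.3 and 60.1 CPM with doxycycline, where the c6 pair went down and the other 3 up (log2 fold change 0.030, adjusted p = 0.911, edgeR, with 68.3% of the implied reads matched).

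The other receptors tested had log2 fold changes between -0.60 (PLXNB3) and -0.064 (PLXND1), and none was called. NRP2, the partner of SEMA3F, was at 0.841 to 3.19 CPM in all 8 libraries. Summed over the 11 genes, the semaphorin receptors came to 153 ± 17.8 TPM in control and 138 ± 27.1 TPM with doxycycline (SD, n = 4 each).

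Slit and netrin ligands held no call among the 4 of 6 that were tested, 1 below and 3 above 0, with a median log2 fold change of 0.083. SLIT2, the main Slit in these cells and a repellent for commissural and retinal axons, was at 34.8 ± 8.28 TPM in control and 41.6 ± 12.2 TPM with doxycycline (SD, n = 4 each). Its libraries held 206, 143, 159.8 and 127 CPM in the controls of bulk, c3, c5 and c6 and 244, 183, 204 and 132 CPM with doxycycline. It was higher in each pair, least in c6, and the groups overlapped. The log2 fold change of SLIT2 was 0.26 (standard error 0.0643) and missed the threshold (adjusted p = 0.0534, edgeR), while 3 alternatives called it (range over the alternatives 0.00657 to 0.921). SLIT1 and SLIT3 had at most 15 and 24 reads per library and were not tested.

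NTN1, the netrin that attracts commissural axons to the floor plate, was at 29.4 ± 3.28 TPM in control and 25.3 ± 7.35 TPM with doxycycline (SD, n = 4 each). It stood at 111, 107, 94.5 and 101 CPM in the controls of bulk, c3, c5 and c6, and at 121, 76.6, 76.7 and 78.7 CPM with doxycycline. Bulk with doxycycline was the highest of all 8 libraries, whereas the 3 clones with doxycycline were the lowest. NTN1 was not called over the 4 origins (log2 fold change -0.25, adjusted p = 0.155, edgeR), and without bulk it was, at a log2 fold change of -0.39 (adjusted p = 0.0379, range over the alternatives 0.0379 to 0.889). NTN4, a netrin of basement membranes, was at 17.6, 13.7, 8.49 and 17.7 CPM in the controls of bulk, c3, c5 and c6 and at 21.5, 13.3, 10.3 and 19.0 CPM with doxycycline. Both groups followed the origin, with c5 lowest (log2 fold change 0.16, adjusted p = 0.360 for treatment and 0.00372 for origin, edgeR), and NTN3 was at 0.697 to 2.23 CPM. The summed level of these 6 ligands was 73.2 ± 12.6 TPM in control and 76.8 ± 20.7 TPM with doxycycline (SD, n = 4 each).

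Slit and netrin receptors had the lowest median log2 fold change of the 4 classes, -0.37. Of the 10, 8 were tested, and 2 fell, NEO1 and ROBO1, while 6 were not called. Neogenin, encoded by NEO1, is a receptor for netrins and for the repulsive guidance molecules. NEO1 stood at 132, 113, 105 and 139.6 CPM in the controls of bulk, c3, c5 and c6, and at 103, 94.9, 76.0 and 94.0 CPM with doxycycline. Every doxycycline culture lay below every control, if narrowly, as bulk with doxycycline came next to the c5 control. NEO1 fell from 122 ± 16.2 CPM in the controls to 91.9 ± 11.3 CPM with doxycycline (SD, n = 4 each). The fitted log2 fold change was -0.41 (standard error 0.0654, adjusted p = 0.0161, edgeR).

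Without the block the adjusted p of NEO1 was 0.454 (range over the alternatives 9.68e-07 to 0.509). The gene lies on the plus strand of chromosome 15, at 73051692 to 73305206 (GRCh38.p14), and 68.0% of its implied reads were matched. The predicted transcript XM_017022231.1 held 75.3% to 82.5% of the matched reads, and with curated transcripts alone the log2 fold change was 2.20 (standard error 1.72) and not called.

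ROBO1, the Slit receptor that keeps commissural axons from crossing back, stood at 97.2, 84.8, 73.4 and 83.9 CPM in the controls of bulk, c3, c5 and c6, and at 84.1, 74.0, 58.3 and 55.9 CPM with doxycycline. The groups overlapped, since bulk with doxycycline was above the c5 and c6 controls, and c6 moved most. ROBO1 fell from 84.8 ± 9.74 CPM in the controls to 68.1 ± 13.4 CPM with doxycycline (SD, n = 4 each). The fitted log2 fold change was -0.33 (standard error 0.0763, adjusted p = 0.0433, edgeR), and without the block the adjusted p was 0.710 (range over the alternatives 0.00168 to 0.710). With curated transcripts alone ROBO1 also lost its call, at a log2 fold change of -0.23 (adjusted p = 0.241, edgeR). Reads of ROBO1 were shared mainly by NM_133631.3 (29.8% to 63.4%), XM_017006985.1 (19.9% to 41.6%) and NM_001145845.1 (8.09% to 25.7%).

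ROBO2, its close relative, stood at 11.2, 6.71, 9.29 and 9.29 CPM in the controls of bulk, c3, c5 and c6, and at 7.83, 4.796, 7.70 and 4.25 CPM with doxycycline. It was lower in 4 of 4 pairs with overlapping groups, and its log2 fold change, -0.59 (standard error 0.159), was not called (adjusted p = 0.0646, edgeR, range over the alternatives 0.0226 to 0.705). Only 20.1% of the reads implied for ROBO2 were matched. ROBO3 was at 1.59 to 2.47 CPM (log2 fold change 0.087, not called), and ROBO4, the endothelial member, had at most 3 reads.

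Of the UNC5 receptors, through which netrins repel, none was called. UNC5C had the largest log2 fold change of all members tested, -2.19 (standard error 0.613), on few reads. It stood at 1.06, 1.13, 1.34 and 1.49 CPM in the controls of bulk, c3, c5 and c6, and at 0.583, 0.204, 0 and 0.421 CPM with doxycycline. The doxycycline cultures lay below all controls, at 19, 7, 0 and 10 reads against 42, 36, 37 and 37. The adjusted p was 0.0717 (edgeR, range over the alternatives 0.0150 to 0.519), and with the filter at 1 count in any library the gene was called. A count of 0 in c5 is compatible with up to 3 reads there, by counting error alone. Its reads were placed on NM_003728.4 or XM_005263321.3, each with 0% to 100% of the gene depending on the library, and 72.6% of the implied reads were matched.

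UNC5B, a receptor of vessels and neurons, stood at 23.0, 23.6, 12.1 and 21.6 CPM in the controls of bulk, c3, c5 and c6, and at 22.4, 9.82, 7.77 and 18.5 CPM with doxycycline. It was lower in each pair, by a log2 ratio between -1.26 in c3 and -0.038 in bulk, and the groups overlapped. The log2 fold change of UNC5B was -0.53 (standard error 0.188) and was not called (adjusted p = 0.132, edgeR, range over the alternatives 0.0487 to 0.921). UNC5A had a log2 fold change of -0.29 and was not called. UNC5D had 18.0% of its implied reads matched, and these were found only in the bulk pair, at 1.898 and 1.504 CPM, with 0 in the 6 libraries of the clones.

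DCC, the netrin receptor of commissural axons, was at 45.1, 47.9, 36.0 and 58.7 CPM in the controls of bulk, c3, c5 and c6, and at 52.9, 47.9, 38.7 and 45.9 CPM with doxycycline. The groups overlapped and the pairs went both ways (log2 fold change -0.0045, standard error 0.0964, adjusted p = 0.985, edgeR, with 74.1% of the implied reads matched). Summed over the 10 genes, these receptors came to 71.7 ± 9.77 TPM in control and 58.1 ± 12.1 TPM with doxycycline (SD, n = 4 each).

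Side by side on the TPM scale, 12 of the 47 members had a mean of 10 TPM or more over the 8 libraries and 17 had a mean under 1 TPM. The order from the top was PLXNB2 (70.4), NRP1 (40.3), SLIT2 (38.2), SEMA4C (28.9), NTN1 (27.3), NEO1 (25.4), SEMA3F (24.4), ROBO1 (17.9), PLXNA1 (17.2), SEMA6A (13.8), SEMA3D (11.8) and PLXND1 (10.95). This order is of matched reads, and the places of SEMA3D (54.7% matched), NEO1 (68.0%) and PLXNA1 (68.3%) are lower limits. SEMA6B (7.24 TPM, 43.3% matched) and DCC (7.59 TPM, 74.1% matched) lay under 10 TPM on matched reads alone. The order pools both groups, and SEMA6A held its place in neither: at 8.24 TPM in control it was under 10 TPM, and at 19.4 TPM with doxycycline it was above ROBO1 (16.0) and PLXNA1 (17.6). SEMA3D was above PLXND1 in control (14.6 against 11.02 TPM), and with doxycycline it was below PLXND1 (9.03 against 10.88 TPM) and under 10 TPM. Neighbours from NRP1 down to SEMA3F, and ROBO1 and PLXNA1, differed in both groups by less than the larger of their SDs. Ligands and receptors that bind each other were present in the same cultures for SEMA4C with PLXNB2, SLIT2 with ROBO1, NTN1 with NEO1 and DCC, and SEMA3A with NRP1 and PLXNA1.

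**Figure D2:**
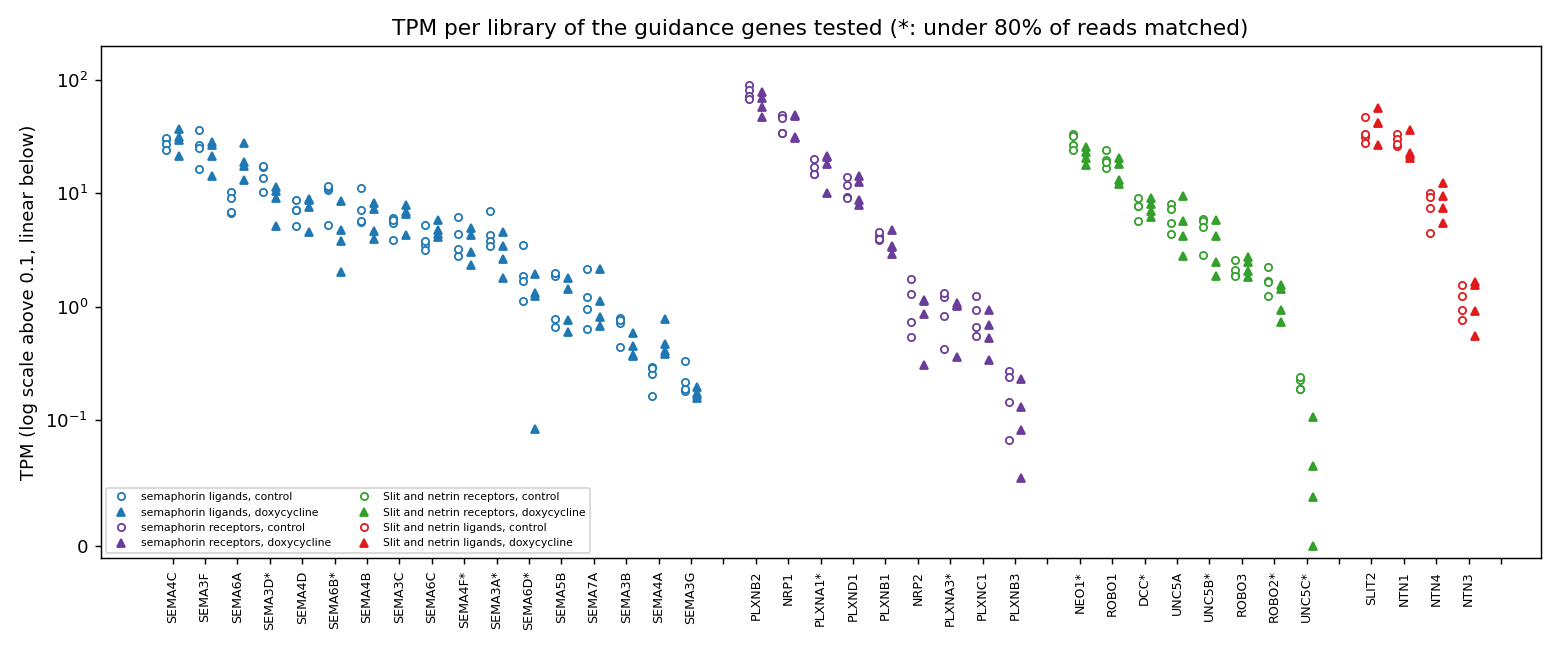
TPM in each of the 8 libraries (y axis, log scale above 0.1 and linear below) for the 38 guidance genes tested, ordered by mean within each class, with open circles for control and filled triangles for doxycycline. PLXNB2 is highest, and an asterisk marks genes with less than 80% of the implied reads matched, whose levels are lower limits.

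The second question was how the guidance genes differed between the polyclonal population and the clones, apart from treatment. By the test of the 3 origin terms, 24 of the 38 were called (63.2%) against 39.4% of all genes. The median ratio of the highest to the lowest origin mean was 1.78 over the 38 and 1.48 over all genes. Among the 24, bulk had the highest mean of 10 and the lowest of 0, whereas c5 had the lowest of 11 and c6 of 9. Over all 6300 genes called between origins, bulk had the highest mean in 14.9% and the lowest in 14.6%, c5 the lowest in 30.1% and c6 the lowest in 31.4%.

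NRP2 differed most, with origin means of 2.02, 2.75, 2.84 and 0.923 CPM in bulk, c3, c5 and c6, a 3.08-fold range (adjusted p = 0.0106 for origin, edgeR). SEMA7A was high in c3, at 4.18 CPM against 1.42 to 1.96 in the other origins (2.95-fold, adjusted p = 0.0216). PLXNA3 was low in c6, at 2.75 CPM against 5.50 to 7.64 (2.78-fold, adjusted p = 0.00682, with 18.0% of its implied reads matched). SEMA5B was at 4.796 and 4.837 CPM in bulk and c5 and at 1.74 and 2.26 in c3 and c6 (2.77-fold, adjusted p = 0.00657). All 7 genes called for treatment were also called for origin, from 1.29-fold in NEO1 to 2.47-fold in SEMA6B, where 60.3% of all 1221 genes called for treatment were, and both tests use the same fit.

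The size of the change with treatment also varied by origin. Of the 7 called genes, bulk had the smallest change in 4 and the largest in 0, and c6 had the largest in 4. Over all 1221 called genes bulk had the smallest change in 50.1% and the largest in 5.65%, and c6 the largest in 36.1%, which is the background for the tally of the 7. For FEZF1 itself the log2 ratio was -0.67 in bulk, -0.71 in c3, -0.82 in c5 and -1.03 in c6. A difference between origins in response was not tested. Leaving out 1 origin at a time, SEMA6A kept its call each time, and NEO1 and SEMA3D lost theirs without c5 or c6. SEMA6B and PLXNB2 lost theirs without c3, c5 or c6, SEMA3A without bulk, c3 or c6, and ROBO1 in each case.

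The wider pathway was read from 63 other genes, among them co-receptors, further guidance ligands and intracellular effectors. Of these 58 were tested and 8 were called (13.8%), where 7.63% of all genes tested were, with 4 higher (3.73% of all genes) and 4 lower (3.91% of all genes) and a median log2 fold change of -0.049. Among those that act outside the cell, HJV, a repulsive guidance molecule family member that binds neogenin, rose, and DRAXIN, NTNG1 and NRCAM fell. Inside the cell MICAL3, NCK2 and LIMK1 rose and CRMP1 fell.

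HJV was low, at 0.405, 0.283, 0.581 and 0.362 CPM in the controls of bulk, c3, c5 and c6 and at 1.35, 0.872, 2.12 and 0.715 CPM with doxycycline. All doxycycline cultures were above all controls (log2 fold change 1.58, standard error 0.264, adjusted p = 0.0180, edgeR, and 0.325 without the block, range over the alternatives 0.00385 to 0.325).

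DRAXIN, a secreted protein that binds DCC and netrin 1, held 12.2, 25.3, 7.11 and 18.2 CPM in the controls of bulk, c3, c5 and c6, and 9.86, 15.5, 5.78 and 10.1 CPM with doxycycline. It fell in each pair, from 15.7 ± 7.84 to 10.3 ± 3.99 CPM over overlapping groups (SD, n = 4 each, log2 fold change -0.55, adjusted p = 0.0405, edgeR). NTNG1, a membrane-anchored netrin, held 137, 120.5, 108 and 161 CPM in the controls of bulk, c3, c5 and c6, and 125, 96.4, 83.9 and 129 CPM with doxycycline. The groups overlapped and every pair moved down, from 132 ± 23.0 to 109 ± 22.0 CPM (SD, n = 4 each, log2 fold change -0.28, adjusted p = 0.0309, edgeR). NRCAM, an adhesion molecule that works with neuropilins, held 53.9, 54.2, 30.7 and 70.4 CPM in the controls of bulk, c3, c5 and c6, and 42.0, 43.6, 25.1 and 45.4 CPM with doxycycline. Here c5 was lowest in both groups, which overlapped, and the mean fell from 52.3 ± 16.3 to 39.0 ± 9.39 CPM (SD, n = 4 each, log2 fold change -0.40, adjusted p = 0.0240, edgeR).

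CRMP1, a cytoplasmic mediator of SEMA3A signals, held 86.3, 112, 69.6 and 70.2 CPM in the controls of bulk, c3, c5 and c6, and 77.4, 91.4, 47.7 and 55.2 CPM with doxycycline. With c3 highest in both, the groups overlapped, and the mean fell from 84.5 ± 19.8 to 67.9 ± 20.1 CPM (SD, n = 4 each, log2 fold change -0.33, adjusted p = 0.0365, edgeR). MICAL3, of the family of actin-oxidising enzymes that act below plexins, held 94.0, 83.1, 94.5 and 57.4 CPM in the controls of bulk, c3, c5 and c6, and 110.4, 111, 137 and 64.2 CPM with doxycycline. The c6 pair was low in both groups, which overlapped, and the mean rose from 82.3 ± 17.4 to 106 ± 30.4 CPM (SD, n = 4 each, log2 fold change 0.34, adjusted p = 0.0365, edgeR). NCK2, an adaptor that links guidance receptors to the cytoskeleton, held 37.8, 41.0, 37.6 and 38.6 CPM in the controls of bulk, c3, c5 and c6, and 44.2, 52.3, 49.9 and 51.7 CPM with doxycycline. All its doxycycline cultures were above all controls, and the mean rose from 38.7 ± 1.56 to 49.5 ± 3.67 CPM (SD, n = 4 each, log2 fold change 0.35, adjusted p = 0.0222, edgeR).

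LIMK1, the kinase that inactivates cofilin, held 123, 146, 156 and 118 CPM in the controls of bulk, c3, c5 and c6, and 162.5, 153, 192 and 149 CPM with doxycycline. The groups overlapped while every pair moved up, and the mean rose from 136 ± 18.4 to 164 ± 19.5 CPM (SD, n = 4 each, log2 fold change 0.27, adjusted p = 0.0465, edgeR). Without the block all 8 missed the threshold in edgeR, at adjusted p from 0.325 (HJV) to 0.911 (CRMP1), while DESeq2 without the block called NCK2 (adjusted p = 0.0446). With curated transcripts alone HJV kept its call and the other 7 lost theirs, and LIMK1 alone lost its call with DESeq2 size factors (adjusted p = 0.0594, range over the alternatives 0.00704 to 0.696). Leaving out 1 origin, all 8 lost their calls without c5 and all but HJV without c6. DRAXIN, NRCAM and MICAL3 lost theirs in each case, NTNG1, CRMP1 and NCK2 also without c3, LIMK1 also without bulk, and HJV without bulk, c3 or c5.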

How the data were processed

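RNA from the 8 cultures was made into stranded mRNA libraries and sequenced as paired ends. The authors quantified the reads per RefSeq transcript with Salmon on the Galaxy platform (build GRCh38 per the labels) and deposited, per library, estimated counts and TPM. The authors' deposited table of DESeq2 results (DESeq2 version 2.11.40.6 per the labels) holds means, fold changes and p-values, and its comparison columns were not used. Its mean, a signal value of size-factor-normalized counts computed by the authors, served only to state how much of a gene's reads was matched. Whether Salmon used the strand is not given, so reads of overlapping antisense genes cannot be told apart. The deposited estimated counts were summed per gene symbol, through transcript accessions in the RefSeq table (GRCh38.p14), and rounded. Of 158867 transcripts 115325 were matched (72.6%, 99.2% of curated and 50.3% of predicted ones), which held 89.9% to 91.1% of the reads. Of the 47 members, 14 had under 80% of their implied reads matched (SEMA3A, SEMA3D, SEMA4F, SEMA4G, SEMA6B, SEMA6D, PLXNA1, PLXNA3, ROBO2, UNC5B, UNC5C, UNC5D, DCC and NEO1).

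Counts were fitted in edgeR 4.0.16 (R 4.3.3, TMM, filterByExpr, quasi-likelihood test, Benjamini-Hochberg over all genes tested, threshold 0.05) with treatment and the origin (bulk, c3, c5 or c6) as a replicate block. The pairing comes from the labels, since both cultures of an origin share their cells, and deviations from the group means correlated within an origin at 0.406 (bulk), 0.546 (c3), 0.590 (c5) and 0.582 (c6), against -0.395 to 0.179 between origins. Log2 ratios of single pairs used a prior count of 0.5. The 12 alternatives were no replicate block, DESeq2 1.42.0 with and without it, DESeq2 size factors, 2 other filters, a length offset, curated transcripts alone, and each origin left out in turn. The fit was tested on simulated data, where it gave the right signs and sizes but found fewer of the changed genes than first required and made more false calls than the threshold allows.

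Values per library are given for called members, for those with an absolute log2 fold change of 0.5 or more in 1 direction in 4 pairs, for SEMA6A and UNC5C, which the study names, and for the 3 highest members by TPM of each class, and for the partner genes called. SEMA6D, PLXNA2, UNC5D and the origin examples were named after their values were seen. The members and lists were chosen with earlier results of these data known.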

Additional observations from a re-analysis of the deposited data

Results flagged for a closer look

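Of 58 groups of 4 cultures checked for a library far from the other 3 of its group, 5 had one, where chance gives about 2.9. SEMA3A was at 33.9 CPM in the c3 control, against 17.4 to 19.8 CPM in the other controls. SEMA4A was at 1.29 CPM in the bulk doxycycline culture, against 0.697 to 0.785 CPM in the others of its group. UNC5B was at 12.1 CPM in the c5 control, against 21.6 to 23.6 CPM. NTN1 was at 121 CPM in the bulk doxycycline culture, against 76.6 to 78.7 CPM in the clones. Of the partner genes, NRCAM was at 25.1 CPM in the c5 doxycycline culture, against 42.0 to 45.4 CPM.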

How the results depend on the processing

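The replicate block decided most calls. Without it edgeR called 0 guidance genes (7 with the block), 0 partner genes (8 with it) and 1 gene in all (1221 with it), and FEZF1, at a log2 fold change of -0.80, was not called. DESeq2 without the block called FEZF1 (-0.81), 1 guidance gene, 1 partner and 232 genes, and DESeq2 with it 10, 15 and 1920. With 10 counts required in every library 13 of 54 partners were called, 9 of 35 guidance genes and 1692 of 13595 genes in all. Curated transcripts alone gave 4 guidance genes, 1 partner, 493 genes, 15 origin calls (24 with all transcripts) and 12 members with 1 direction in 4 pairs (19). There the estimates of NEO1 (2.20, standard error 1.72) and SEMA3F (0.66, standard error 2.08) changed sign on the log2 scale, neither called. Errors of this size leave the direction undecided, and for NEO1 few reads remained. Leaving out 1 origin gave 1 to 6 guidance genes (1 without c6, 2 without c5, 3 without c3), 0 to 5 partners, 175 to 699 genes, 15 to 21 origin calls and 20 to 25 members with 1 direction in the 3 pairs left. With 1 origin left out, the log2 fold change of PLXNA1 ran from -0.067 to 0.19 and that of DCC from -0.089 to 0.11, neither called. DESeq2 size factors, the length offset, both other filters and DESeq2 with the block kept all 7 called guidance genes. Few reads limit 7 of the 9 members that were not tested, and UNC5C and SEMA4A, with at most 42 reads per library. The other untested members, SEMA4G and UNC5D, had 4.89% and 18.0% of their implied reads matched, and incomplete matching limits 14 members in all, among them SEMA3A, SEMA3D, SEMA6B and NEO1. The cause of these differences was not tested.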
